A study of Mus musculus with 2 samples.

Results

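The p53 family and its closest regulators were followed in a DNase I hypersensitivity (DHS-seq) table of M1 cells, a mouse myeloid leukemia line that differentiates toward macrophages when given interleukin-6 (IL-6). The set holds 10 genes of the 22575 genes listed on chromosomes 1 to 19 and X. They are *Trp53*, *Trp63*, *Trp73*, *Mdm2*, *Mdm4*, *Cdkn1a*, *Bbc3*, *Pmaip1*, *Wrap53* and *Trp53bp1*. The set was chosen by name as the p53 family, its regulators and its best known targets, but *Trp53* was picked on its lack of reads in these same libraries, so that its value of 0 is a description and not a finding. All 42 listed transcripts of the 10 genes were used, and the transcript with the most windows stands for each gene. One group, M1, is untreated cells, and the other, M1+IL-6, is the same line seeded in medium with IL-6 for 4 to 5 days. Both were taken at passages 15 to 18 and grown in RPMI 1640 with horse serum, and all come from 1 established line. Each condition has 1 library, so no test across libraries was possible, no p-value is given, and the 95% intervals below cover counting error only and compare 2 libraries rather than 2 conditions.

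p53, the product of *Trp53*, is a transcription factor that is stabilized after DNA damage and other stress and then stops the cell cycle or starts cell death. Its relatives p63 (*Trp63*) and p73 (*Trp73*) bind similar sites, and are best known in epithelia and in the nervous system. *Mdm2* encodes the ubiquitin ligase that keeps p53 low, and *Mdm4* encodes its partner, while *Cdkn1a* (p21), *Bbc3* (PUMA) and *Pmaip1* (NOXA) are classical p53 targets for arrest and death. *Wrap53* starts back to back with *Trp53*, and *Trp53bp1* encodes 53BP1, a p53-binding protein of DNA repair.

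The values are reads per 700-bp window, averaged over every window that a transcript's coding bases reach from start to stop codon, and they describe how open the chromatin of the coding span is to DNase I, not RNA. Windows outside coding spans are not covered, which leaves out most promoters. The median gene had 7.76 reads per window in M1 and 8.15 in M1+IL-6 on the scale of the table, in which 1 read of the M1+IL-6 library is worth 1.04. Strong spans and weak spans differed between the libraries. Genes with a summed mean of 80 or more had a median log2 ratio (M1+IL-6 over M1) of −1.76, and those between 5 and 10 had a median of 0.36. Of the lineage markers, 4 of 5 myeloid progenitor genes and 4 of 5 macrophage genes were above the median gene in M1, led by *Flt3* (53.4 reads per window) and *Cd14* (50.7), with *Kit* (4.10) and *Emr1* (2.75) below it. So were 2 of 3 lymphoid genes and 1 of 2 erythroid genes, *Epor* at 16.0, so these values do not tell the labelled cell type from the others.

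*Trp53* lies on the plus strand of chromosome 11 (NCBIM37, chr11:69393861-69405375), with its coding bases in the 7 windows of chr11:69400101-69405000. Its coding start is shown because the windows that hold it had no reads. The bases between the annotated starts of *Wrap53* and *Trp53* are shown because they precede both genes and lie in the stretch on which the table is silent. Whether they act as a promoter of both was not tested. Capitals mark coding bases, and both sequences are the plus strand of NCBIM37, chr11:69400393-69400692 and chr11:69393758-69393860.
Trp53 coding start: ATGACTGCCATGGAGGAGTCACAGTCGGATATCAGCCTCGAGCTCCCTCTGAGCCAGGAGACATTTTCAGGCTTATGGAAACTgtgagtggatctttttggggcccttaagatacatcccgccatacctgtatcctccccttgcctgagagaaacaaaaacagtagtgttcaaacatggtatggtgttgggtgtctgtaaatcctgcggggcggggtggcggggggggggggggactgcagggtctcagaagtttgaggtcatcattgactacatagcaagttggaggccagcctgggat
Between the Wrap53 and Trp53 starts: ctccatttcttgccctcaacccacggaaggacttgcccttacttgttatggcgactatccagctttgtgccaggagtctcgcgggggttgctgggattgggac
This stretch of 103 bases between the starts held 1 match to the CCAAT box (CCAAT, both strands), and 20.5% of the 22238 promoter sequences of this length hold at least 1. It held 0 matches to the GC box (GGGCGG), which 31.4% hold, and 0 to the TATA box (TATAAA), which 6.15% hold.

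None of the 5 listed *Trp53* transcripts had a read in either library. *Trp53* had 0 reads in its 7 windows in M1 and 0 reads in M1+IL-6, and a count of 0 allows up to 3 reads, or 0.429 reads per window in M1 and 0.445 in M1+IL-6. Both libraries were therefore at the bottom of the scale, where 7 windows at the level of the median gene would hold 54.3 reads in M1 and 57.1 scaled reads in M1+IL-6. Among the 15468 genes with at least 7 windows, 170 genes (1.10%) had 0 reads in both libraries. On chromosome 11, 3 of 1152 such genes did, and the other two, named here after their values were seen, were *Gm11710* and *Gm11711*. The *Trp53* coding span therefore held less than nearly all genes with at least as many windows, many of them longer, which is the property it was picked on.

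The silence of *Trp53* was set beside the sequence of its windows. The gene was chosen with earlier results known, which may have included the uniqueness of this sequence, so these values too are a description. A read whose bases occur more than once in the genome cannot be assigned to 1 place by its sequence alone. How the alignment handled such reads was not checked. The share of positions whose 32 bases occur once in NCBIM37 was computed. It was 92.7% in the 7 *Trp53* windows, and between 89.7% (*Mdm2*) and 97.0% (*Pmaip1*) in the other members. Of the 170 genes at 0, 165 had under 50% of unique positions and the median gene had 0%. The 3 genes with the most windows among them, *Gm15093* on chromosome X (296 windows), *Gm2963* on chromosome 14 (122 windows) and *Gm3194* on chromosome 14 (112 windows), had at most 0.0217% of unique positions. *Gm11710* had 1.69% and *Gm11711* had 1.47%. At least 90% of positions were unique in 3 of the 170 genes, which are *Trp53*, *H60b* (90.9%) and *Gm4758* (90.6%), the last 2 named after their values were seen. The GC content of the *Trp53* windows was 51.4%, at the 79.2 percentile of all genes. That of the other members ran from 39.6% (*Trp63*) to 56.1% (*Bbc3*). What leaves the *Trp53* windows without reads was not tested.

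The genes on either side had reads, which bounds the stretch. To the left, the nearest listed windows are the 3 at the 5′ end of *Wrap53* (chr11:69391001-69393100). They held 111, 9 and 4 reads in M1, in an order that cannot be recovered, and 27 reads in all in M1+IL-6. None of these windows was empty in either library. Further left, *Efnb3*, an ephrin ligand gene, had 26 reads in M1 and 36 in M1+IL-6 over 6 windows. To the right, the nearest listed windows are the 4 at one end of *Atp1b2*, a sodium pump subunit gene (chr11:69414101-69416900), with 14 reads in M1 and 23 in M1+IL-6. Every possible set of 4 windows with those sums and SDs has at least 1 read in each window. Across all 7 windows *Atp1b2* had 21 reads in M1 and 34 in M1+IL-6, and *Shbg*, the gene of sex hormone-binding globulin, had 15 and 15 reads over 5 windows. The coding spans next to *Trp53* thus had between 3 and 8.65 reads per window in M1 and between 3.11 and 6.23 in M1+IL-6. The stretch without reads is at least the 4.9 kb of the *Trp53* windows and at most 21 kb (chr11:69393101-69414100). The table covers no window in the 7.0 kb to the left of the *Trp53* windows, which hold the *Trp53* promoter and most of its first intron, or in the 9.1 kb to the right. In those windows 98.1% and 85.8% of positions were unique.

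**Figure D1:**
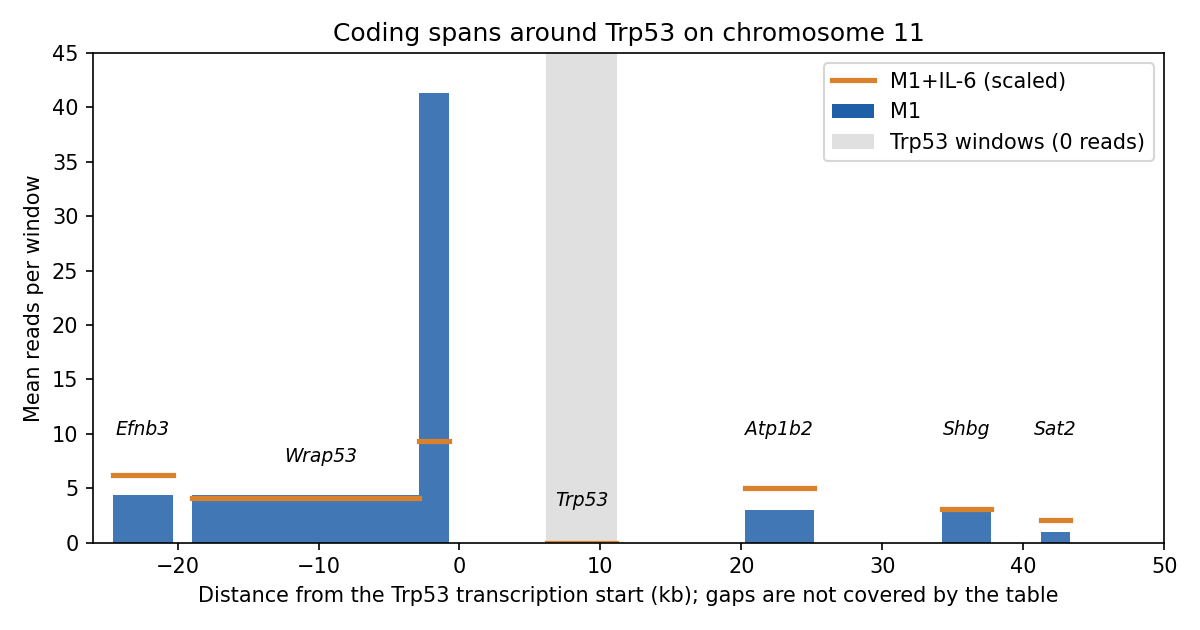
Mean reads per 700-bp window (vertical axis) of the coding spans around *Trp53*, by distance in kb from its transcription start (horizontal axis). Blue bars are M1 and orange lines are M1+IL-6 on the table's scale, 1 library each, white gaps are not covered by the table, and *Wrap53* is drawn in 2 stretches. The grey *Trp53* windows have 0 reads in both libraries, between the 3 *Wrap53* windows at 41.3 (M1) and 9.34 (M1+IL-6) and *Atp1b2* at 3 and 5.04.

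The relatives of p53 both had reads. *Trp63* lies on chromosome 16 (chr16:25683849-25892188, plus strand), and its coding span covers 294 windows. It had 830 reads in M1, or 2.82 ± 2.52 per window (SD over windows), and 1287 in M1+IL-6, or 4.54 ± 3.48. The ratio was 1.61 (95% interval 1.47 to 1.76, log2 0.69). This level was below that of the median gene in both libraries, at the 16.6 percentile in M1 and the 23.0 percentile in M1+IL-6, and the 1030 genes with a summed signal within 10% of it had a median log2 ratio of 0.37. *Trp73* lies on chromosome 4 (chr4:153430358-153514317, minus strand), with 71 windows in its widest coding span. It had 993 reads in M1, or 13.99 ± 13.05 per window, and 1141 in M1+IL-6, or 16.68 ± 9.58, a ratio of 1.19 (1.09 to 1.30, log2 0.25). *Trp73* was above the median gene in both libraries, and its signal per window in M1 was higher than that of *Trp63*, *Mdm2* and *Mdm4*.

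*Trp63* and *Trp73* each have transcripts that start at different places, which divides their spans. In *Trp63* the transcripts with the upstream start, which code for the long amino-terminal forms, cover 169 windows that the transcripts with the internal start do not. These windows had 447 reads in M1 and 693 in M1+IL-6, a ratio of 1.61 (1.43 to 1.82), and the other 125 windows had 383 and 594 reads, a ratio of 1.61 (1.41 to 1.84). The 2 divisions of *Trp63* could not be told apart in their ratio, since the ratio of one over the other was 1.00 with an interval of 0.836 to 1.20. Within the shared windows, the 18 windows at the 3′ end, which only some of the transcripts reach, had 46 reads in M1 and 99 in M1+IL-6. Their ratio was 2.23 (1.56 to 3.24), the highest of the stretches. The other 4 stretches of *Trp63* had ratios from 1.5 to 1.61, with intervals that all overlap that of the 3′ end. In *Trp73*, an internal stretch of 11 windows, which the transcripts with the innermost start do not cover and another transcript, with a start still further out, does, had 115 reads in M1 and 129 in M1+IL-6, a ratio of 1.16 (0.899 to 1.51). The 55 windows on its 3′ side had 876 and 1011 reads, a ratio of 1.20 (1.09 to 1.31).

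*Mdm2* and *Mdm4*, the inhibitors of p53, both had ratios below 1 with intervals that hold 1. *Mdm2* lies on chromosome 10 (chr10:117125944-117147814, minus strand) and had 199 reads over 29 windows in M1, or 6.86 ± 6.35 per window, and 165 in M1+IL-6, or 5.91 ± 5.55. Its ratio was 0.861 (0.696 to 1.06, log2 −0.22). *Mdm4* lies on chromosome 1 (chr1:134886422-134921943, minus strand) and had 182 reads over 40 windows in M1, or 4.55 ± 3.59, and 148 in M1+IL-6, or 3.84 ± 2.85. Its ratio was 0.844 (0.675 to 1.05, log2 −0.24). A difference between the libraries was not detectable at this depth for either gene, and both were below the median gene in each library. *Mdm2* has 2 promoters, the inner of which is the one that p53 uses. The 6 windows at its 5′ end had 71 reads in M1 and 47 in M1+IL-6, a ratio of 0.687 (0.465 to 1.01), and the other 23 windows had 128 and 118 reads, a ratio of 0.957 (0.739 to 1.24). These windows had 2.13 times the mean of the rest in M1 and 1.53 times in M1+IL-6.

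**Figure D2:**
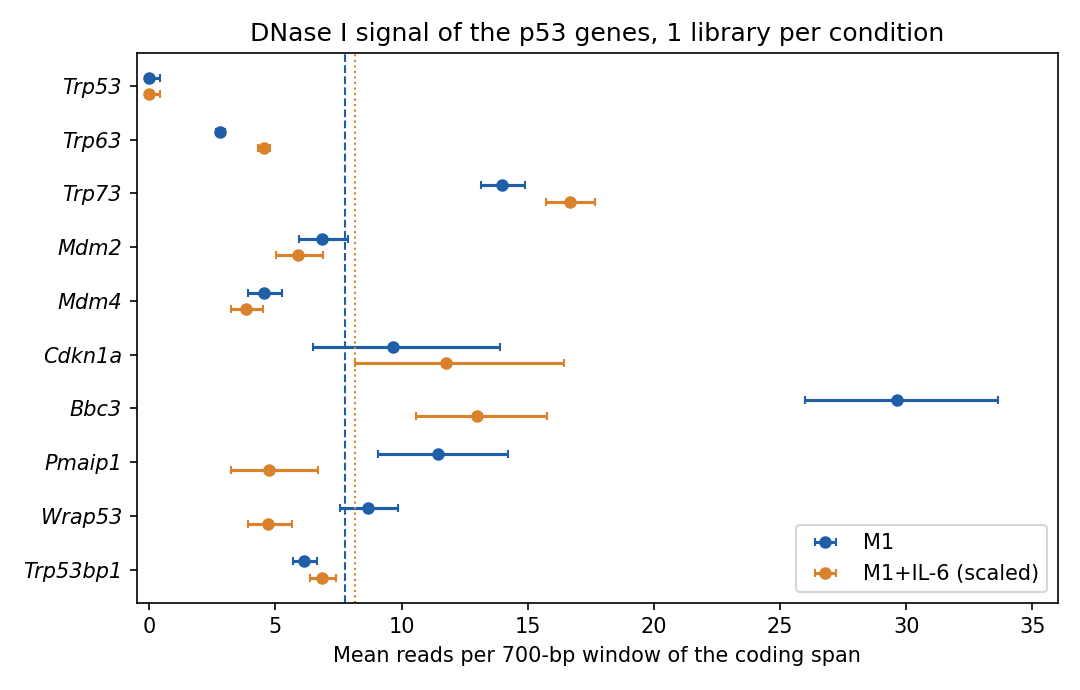
Mean reads per 700-bp window of the coding span (horizontal axis) for the 10 genes, with M1 in blue and M1+IL-6 on the table's scale in orange, 1 library each. Bars are 95% Poisson intervals of the read count, for *Trp53* the limit that a count of 0 allows, and vertical lines mark the median gene (dashed M1, dotted M1+IL-6). *Trp53* is at 0 in both libraries, *Bbc3* is the highest in M1 at 29.6, and the intervals of the 2 libraries lie apart in *Trp63*, *Trp73*, *Bbc3*, *Pmaip1* and *Wrap53*.

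Of the targets, both death genes were lower in M1+IL-6 on the scale of the table, though not with the libraries scaled by strong genes as given below, and the interval of the arrest gene held 1. *Bbc3*, which encodes a protein that frees BAX and BAK to open mitochondria, lies on chromosome 7 (chr7:16894965-16903554, plus strand). It had 237 reads over 8 windows in M1, or 29.6 ± 35.6 per window, and 100 in M1+IL-6, or 13.0 ± 11.5, a ratio of 0.438 (0.343 to 0.556, log2 −1.19). *Bbc3* had the highest mean of the members in M1, at the 91.1 percentile of all genes. The 994 genes with a summed signal within 10% of that of *Bbc3* had a median log2 ratio of −0.59, and 77.1% of them were lower in M1+IL-6.

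The reads of *Bbc3* were concentrated at its 5′ end. The first coding exon is shown because it lies in these windows, as the plus strand of NCBIM37, chr7:16897490-16897763.
Bbc3 first coding exon: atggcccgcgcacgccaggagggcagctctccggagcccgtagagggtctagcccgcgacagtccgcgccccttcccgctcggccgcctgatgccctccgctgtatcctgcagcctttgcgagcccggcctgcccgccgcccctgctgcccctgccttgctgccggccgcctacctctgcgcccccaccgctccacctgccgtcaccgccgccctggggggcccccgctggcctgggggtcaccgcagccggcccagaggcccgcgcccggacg
The 3 windows at the 5′ end of the coding span (chr7:16897301-16899400) had 172 reads in M1 and 62 in M1+IL-6, a ratio of 0.374 (0.275 to 0.503). The other 5 windows had 65 and 38 reads, a ratio of 0.607 (0.396 to 0.919). Both ends were thus lower in M1+IL-6, and the ratio of the 2 ratios, 0.618, had an interval of 0.366 to 1.05 that holds 1. In M1+IL-6 the 3 windows held 39, 14 and 9 reads, and in M1 the sums allow either 114, 40 and 18 or 94, 78 and 0, so the strongest window had at least 94 reads in M1 against 39.

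*Pmaip1*, which encodes a small protein that neutralizes MCL1, lies on chromosome 18 (chr18:66618258-66625204, plus strand) and had 80 reads over 7 windows in M1, or 11.4 ± 10.9, and 32 in M1+IL-6, or 4.75 ± 3.78. Its ratio was 0.415 (0.267 to 0.633, log2 −1.25). The 2377 genes of similar summed signal had a median log2 ratio of 0.15, and *Pmaip1* was at the 1.37 percentile among them. These genes were matched on the mean of the span and not on the strongest window. In *Pmaip1* that window held between 21 and 36 reads in M1 and between 8 and 12 in M1+IL-6. *Cdkn1a*, which encodes the inhibitor of cyclin-dependent kinases p21, lies on chromosome 17 (chr17:29227924-29237667, plus strand) and had 29 reads over 3 windows in M1 and 34 in M1+IL-6. Its ratio was 1.22 with an interval of 0.720 to 2.07, so neither a rise nor a fall was detectable with so few reads. In *Cdkn1a* the windows held 16, 8 and 5 reads in M1 and either 20, 7 and 7 or 19, 11 and 4 in M1+IL-6, so 1 window was above the others in each library.

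*Wrap53* and *Trp53bp1*, the remaining members, each had a higher mean at the 5′ end than in the rest in M1. That end held 124 of the 225 M1 reads in *Wrap53* and 130 of 646 in *Trp53bp1*. *Wrap53* lies on chromosome 11 (chr11:69375260-69393757, minus strand) and encodes a protein that brings telomerase RNA to Cajal bodies. It had 225 reads over 26 windows in M1, or 8.65 ± 21.1 per window, and 118 in M1+IL-6, or 4.71 ± 3.34, a ratio of 0.544 (0.432 to 0.683, log2 −0.87). The 3 windows at its 5′ end had 124 reads in M1 and 27 in M1+IL-6, a ratio of 0.226 (0.143 to 0.345), and in M1 111 of the 124 reads were in 1 window. The other 23 windows had 101 and 91 reads, a ratio of 0.935 (0.697 to 1.25). The 5′ ratio over that of the rest was 0.243 (0.140 to 0.410), a comparison within each library that no scaling can alter. In M1 the 5′ windows of *Wrap53* had 9.41 times the mean of the rest of the gene, and in M1+IL-6 2.27 times.

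*Trp53bp1* lies on chromosome 2 (chr2:121019017-121097143, minus strand). Its coding span covers 105 windows, with 646 reads in M1, or 6.15 ± 12.6 per window, and 694 in M1+IL-6, or 6.86 ± 5.33, a ratio of 1.12 (1.00 to 1.24, log2 0.16). A single window at the 5′ end, chr2:121096501-121097200, which holds the first exon, part of the first intron and 57 bases of the promoter, had 130 reads in M1 and 31 in M1+IL-6, a ratio of 0.248 (0.162 to 0.369). The other 104 windows had 516 and 663 reads, a ratio of 1.33 (1.19 to 1.5). The start and the body of *Trp53bp1* therefore differed in opposite directions between the libraries, and the 5′ ratio over that of the rest was 0.186 (0.119 to 0.282). The whole-span ratio near 1 averages over both. Of the 119 single windows in the table whose summed reads were within 25% of this window's, 118 were lower in M1+IL-6, with a median log2 ratio of −1.97, and the *Trp53bp1* window, at −2.0, was at the 45 percentile among them.

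The promoter of *Trp53bp1* is shown because its 5′ ratio over that of the rest was the lowest of the members. The 250 bases before the transcription start are on the minus strand of NCBIM37, chr2:121097144-121097393, and capitals mark the 57 bases that lie in the strong window.
Trp53bp1 promoter: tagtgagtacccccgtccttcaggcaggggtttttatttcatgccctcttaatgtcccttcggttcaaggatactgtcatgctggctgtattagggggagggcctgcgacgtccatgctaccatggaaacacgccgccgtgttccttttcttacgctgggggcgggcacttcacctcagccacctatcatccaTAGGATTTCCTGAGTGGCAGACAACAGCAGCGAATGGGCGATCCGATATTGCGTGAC
These bases held 1 match to the GC box (GGGCGG, both strands), which 39.6% of the 22238 promoters of this length hold. They held 0 matches to the CCAAT box (CCAAT), found in 35.0%, and 0 to the TATA box (TATAAA), found in 12.3%. The GC box match is outside the capitals, in bases that the table does not cover.

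The division into a 5′ stretch and the rest could be made in 6 of the members. In 2 of the 6, *Wrap53* and *Trp53bp1*, the interval of the 5′ ratio over the ratio of the rest was wholly below 1, and in 0 of the 6 wholly above 1. Among all 7680 genes that could be divided in the same way, 32.5% were wholly below 1 and 6.74% wholly above 1, so the share among the members was near that of all genes. The mean of the 5′ stretch was above that of the rest in 5 of the 6 members in each library, the exception being *Trp63*. The same held for 61.5% of the 7680 genes in M1 and 52.4% in M1+IL-6, and 6 genes are too few to set the members apart.

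**Figure D3:**
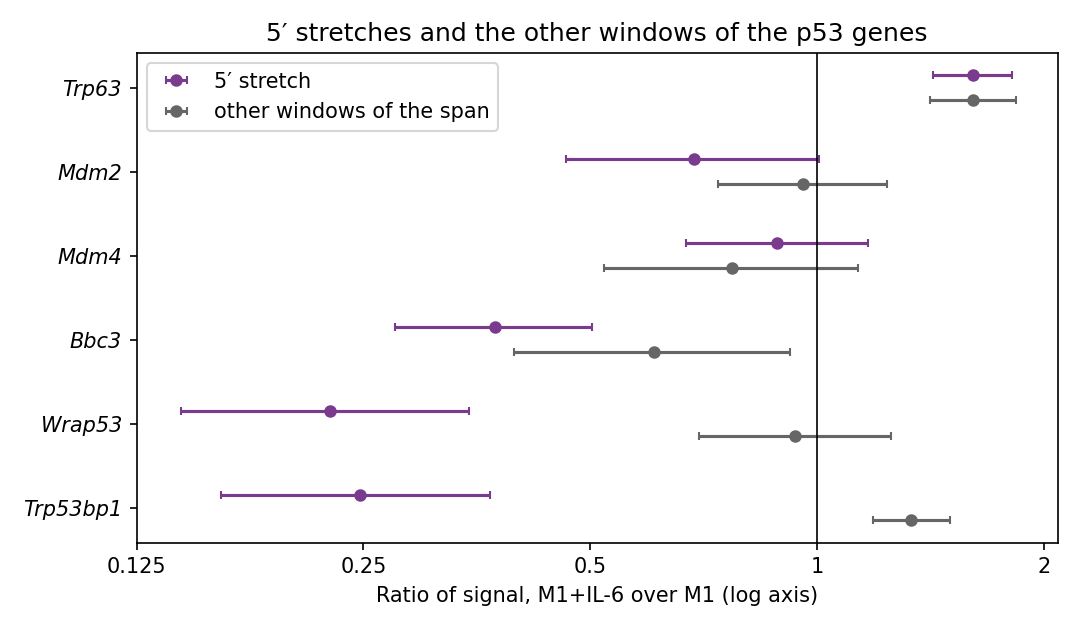
Ratio of signal, M1+IL-6 over M1 (horizontal log axis), in the 5′ stretch (purple) and the other windows (grey) of the 6 genes that could be divided, with 95% Clopper-Pearson intervals that cover counting error only. In *Wrap53* (0.226 against 0.935) and *Trp53bp1* (0.248 against 1.33) the intervals lie apart, and in *Trp63* (1.61 and 1.61) the points coincide.

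Across the 9 members with reads, all of which had more than 21 reads in a library, the median log2 ratio was −0.22, against 0.03 for all 18473 genes that passed this filter. The values ran from −1.25 (*Pmaip1*) to 0.69 (*Trp63*). At least 2-fold lower in M1+IL-6 were 2 of the 9, *Bbc3* and *Pmaip1*, against 13.4% of all genes tested, and at least 2-fold higher were 0 of the 9, against 1.71%. The interval of the ratio was wholly below 1 in 3 of the 9 (*Bbc3*, *Pmaip1* and *Wrap53*), against 34.4% of all genes, and wholly above 1 in 3 (*Trp63*, *Trp73* and *Trp53bp1*), against 29.0%. With no scaling between the libraries the interval of *Trp53bp1* holds 1, and 2 of the 9 are wholly above 1. With so few members, these counts do not set the group apart from all genes. The SD between windows relative to the mean was lower in M1+IL-6 in 7 of the 9 members, all but *Mdm2* and *Cdkn1a*, and in 82.9% of all genes tested. The directions rest on the scaling of the table. With the libraries scaled instead by the median ratio of 928 strong genes, every log2 ratio is raised by 1.36, the median of all genes becomes 1.41, the values of *Bbc3*, *Pmaip1* and *Wrap53* become 0.17, 0.10 and 0.48, and 0 members are lower and 6 higher by at least 2-fold. Under that scaling 71.4% of 20424 genes are higher by at least 2-fold and 0.450% are lower. The order of the members and their place among all genes are the same under both.

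**Figure D4:**
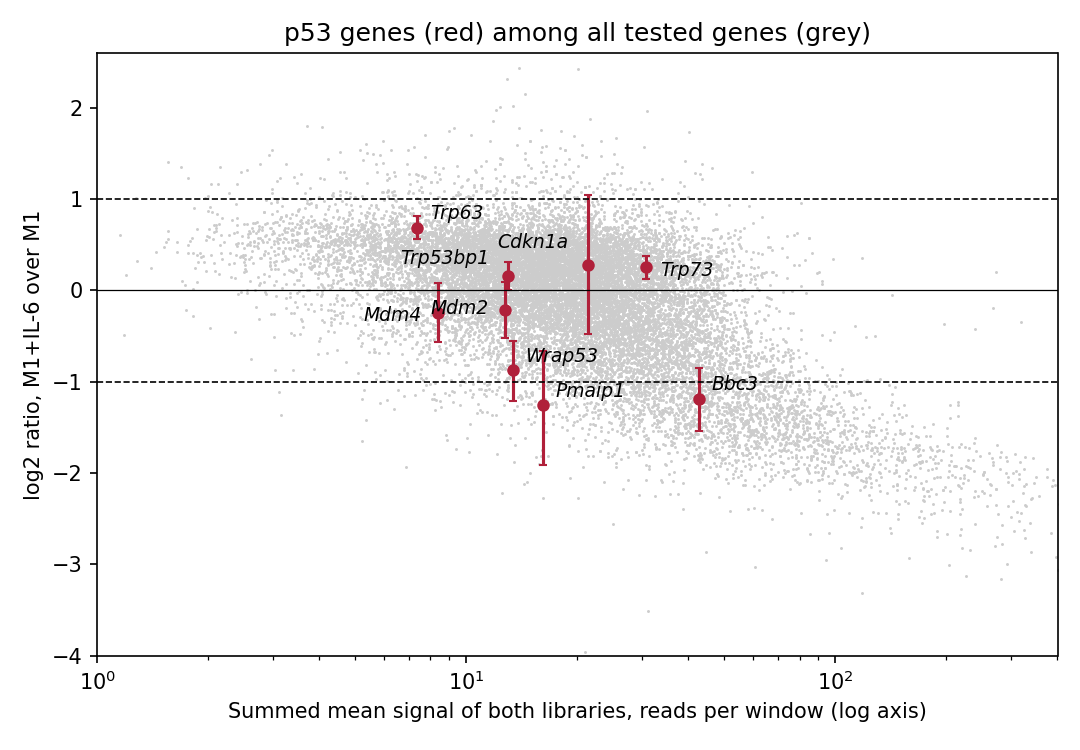
log2 ratio of M1+IL-6 over M1 (vertical axis) against the summed mean signal of both libraries in reads per window (horizontal log axis), for all tested genes (grey) and the 9 members with reads (red, 95% intervals), with dashed lines at 2-fold. Strong genes lie lower, as *Bbc3* does at −1.19, while *Pmaip1* at −1.25 and *Wrap53* at −0.87 lie low among genes of their whole-span signal. That signal is a mean over windows and does not match genes on their strongest window. In *Wrap53* the 3 windows at the 5′ end had a ratio of 0.226 and the other 23 windows 0.935.

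The wider pathway was described by a list of 44 other genes, all of which were found, *Pidd1* under its older symbol *Lrdd* and *Tigar* under *9630033F20Rik*. Of the 41 that passed the filter on reads, 6 were at least 2-fold lower in M1+IL-6 (background 13.4%) and 0 at least 2-fold higher (background 1.71%), with a median log2 ratio of −0.16. Intervals were wholly below 1 in 16 of the 41 genes (background 34.4%) and wholly above 1 in 9 (background 29.0%). The list as a whole was thus close to all genes, and its lower members were spread over several roles.

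Among the upstream kinases and activators, 0 of 9 were at least 2-fold lower, against 13.4% of all genes. Intervals were wholly below 1 in 3 of the 9 (34.4% of all genes) and wholly above 1 in 1 (29.0%). *Kat5* was the lowest, with 401 reads in M1 and 194 in M1+IL-6 (log2 −0.99), named after its value was seen. *Atm*, the kinase that signals double-strand breaks, had 893 reads in M1 and 901 in M1+IL-6, a ratio of 1.05 (0.954 to 1.15). Of the 7 regulators of p53 stability, 2 were lower (13.4% of all genes). These were *Rchy1*, a ubiquitin ligase gene, with 625 reads in M1 and 198 in M1+IL-6 (log2 −1.60), and *Daxx*, with 235 and 82 (log2 −1.46). Of the 6 arrest and checkpoint targets with enough reads, 3 were lower, against 13.4% of all genes. The roles hold too few genes for such counts to set any of them apart. *Gadd45a*, a stress sensor gene, had 500 reads in M1 and 88 in M1+IL-6 over 4 windows, with a log2 ratio of −2.45, the lowest of the list. *Btg2*, an antiproliferative gene, had 127 and 33 reads (log2 −1.87), and *Plk3*, a kinase gene, 300 and 143 (log2 −1.01). The highest value of the list was in the same role, in *Plk2*, a related kinase gene, with 32 reads in M1 and 60 in M1+IL-6 (log2 0.95), and *Ccng1*, a cyclin gene, had 15 and 25 (log2 0.77). Both were named after their values were seen. The lower genes were strong spans, where the median gene had 7.76 reads per window in M1. *Gadd45a* had 125, *Btg2* 42.3, *Plk3* 37.5, *Rchy1* 31.25 and *Daxx* 29.4. Of all genes with a summed mean between 40 and 80, 84.7% were lower in M1+IL-6, with a median log2 ratio of −0.94.

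Of the 12 death targets, 1 was at least 2-fold lower (13.4% of all genes). This was *Bax*, which encodes a pore protein of mitochondria, with 312 reads in M1 and 109 in M1+IL-6 (log2 −1.46). *Bax* too was a strong span, at 39 reads per window in M1. *Perp*, a membrane protein gene, had 78 and 117 reads, with a log2 ratio of 0.64, the largest positive value among genes with at least 100 reads in both libraries together. Among the 7 repair and metabolism targets, 0 were 2-fold lower or higher (13.4% and 1.71% of all genes). Their median log2 ratio was still −0.63, the lowest of the roles. Intervals were wholly below 1 in 4 of the 7 (34.4% of all genes) and wholly above 1 in 2 (29.0%), *Ddb2* and *Polk*. The lowest was *Tigar*, with 362 reads in M1 and 186 in M1+IL-6 (log2 −0.90), named after its value was seen. *Ddb2*, of nucleotide excision repair, had 168 reads in M1 and 211 in M1+IL-6 (log2 0.38), and *Polk*, a DNA polymerase gene, had 264 and 322 (log2 0.34). With the scaling by strong genes all 44 listed genes passed the filter, 1 was at least 2-fold lower (0.450% of all genes) and 28 were at least 2-fold higher (71.4% of all genes).

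**Figure D5:**
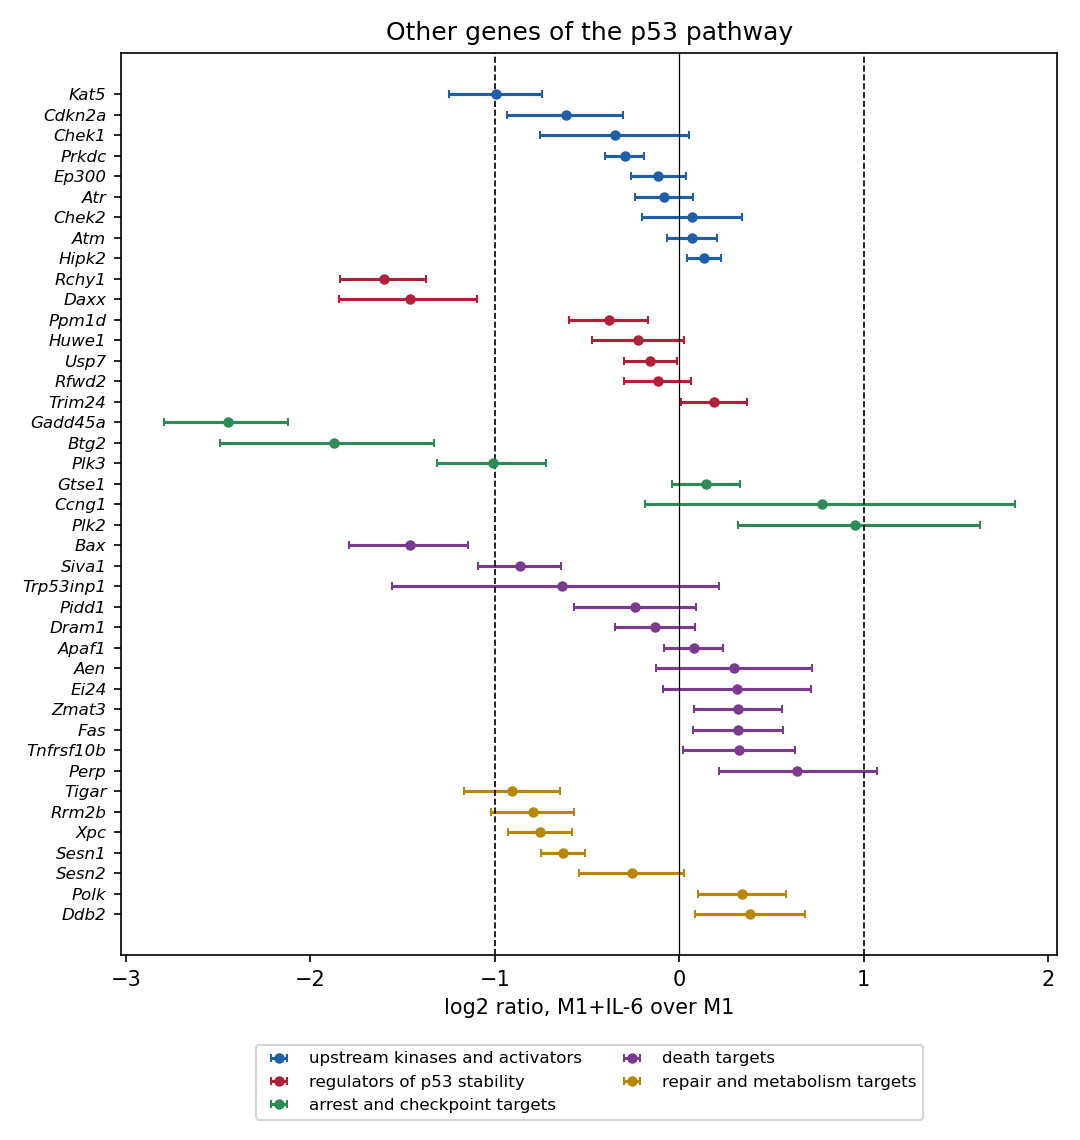
log2 ratio of M1+IL-6 over M1 (horizontal axis) of the 41 tested genes of the p53 pathway list, colored by role and ordered within it, with 95% Clopper-Pearson intervals that cover counting error only and dashed lines at 2-fold. The 6 genes at or below −1 are *Gadd45a*, *Btg2*, *Rchy1*, *Daxx*, *Bax* and *Plk3*, and no gene is at or above 1.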

How the data were processed

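The deposited signal values were made by the authors from 1 library per condition. Nuclei were digested with DNase I, small fragments were sequenced, and reads were aligned with BWA to NCBIM37 (mm9) and summarized with Seqmonk as the mean and SD of reads over the 700-bp windows that each coding span touches. The 10 members and all lists were chosen with earlier results of these data known. Reads were recovered as mean times windows divided by the worth of 1 read (1 in M1, 1.04 in M1+IL-6), and all of the 55432 rows came out within 0.05 of whole reads. Gene positions are those of GENCODE M1. Sums and squares of transcripts with shared boundaries gave the stretches inside genes. This was tested on simulated data. Before log2 ratios were taken 0.5 reads were added per library. Genes with more than 21 reads in a library were counted, and ratios have 95% Clopper-Pearson intervals (scipy). The genes named are the members, the 2 nearest genes on each side of *Trp53*, the 3 longest genes at 0, and the 3 largest rises and falls of the pathway list with at least 100 reads; others were named after their values were seen. Alternatives were 3 scalings, 5 added reads, other transcripts and other filters.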

Additional observations from a re-analysis of the deposited data

How the results depend on the processing

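Scaling the libraries by the median ratio of strong genes, in place of the scaling of the table, changed every value it was applied to, since it adds 1.36 to each log2 ratio. Under it the median log2 ratio was 1.14 for the members, 0.38 for the 5′ stretches and 1.20 for the pathway list, the members at least 2-fold lower and higher numbered 0 and 6, and those of the pathway list 1 and 28, where 0.450% and 71.4% of all genes were. Intervals wholly below and above 1 then numbered 0 and 7 among the members, and 2 and 35 among the 41 genes of the list, an alternative added after the data were seen. *Bbc3* moved to 0.17 and *Pmaip1* to 0.10, above 0. With no scaling, or with the total over coding spans, the ratios of the members and the medians stayed within their intervals, and the counts of 2-fold calls and of intervals within 1.5 times. With no scaling 2 members rather than 3 had intervals wholly above 1, and in the list 20 rather than 16 genes were wholly below 1 and 6 rather than 9 wholly above. With 5 reads added or another filter on reads no value moved. With a fold of at least 1.5, 1 member (*Trp63*) was higher. With its shortest transcript, which covers the 5′ windows alone, *Wrap53* had a log2 ratio of −2.12. The share of genes without reads was 0.26% on chromosome 11 alone and 1.78% when up to 3 reads were allowed. Of 92 values under the settings other than the scaling by strong genes, 4 moved, which are those of the fold of 1.5, of *Wrap53* and of the share of genes without reads. With 1 library per condition nothing is known of the spread between cultures, and windows outside coding spans were not covered. No paired analysis was possible because there is only 1 untreated and 1 treated library.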
